A study of Mus musculus with 10 samples.

Results

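The interleukins and interleukin receptors were read in infrarenal aortic tissue taken while an experimental abdominal aortic aneurysm (AAA) was forming. Members were chosen by name, as every gene name on the array that consists of Il followed by a number and letters, with Il8ra and Il8rb left out because these are old names of chemokine receptors. This gave 83 of 35527 gene names, represented by 104 probes. All tissue came from male 10-week-old C57BL/6J mice on a normal diet and was harvested on day 7. PPE mice had the infrarenal segment tied off and filled for 5 min at 100 mmHg with saline that held type I porcine pancreatic elastase (PPE) at 1.5 U per mL, an enzyme that digests elastin. Sham mice had the same operation and infusion with saline alone, so that ligature, pressure and aortotomy are shared by both groups. There were 5 mice per group and 1 aorta per array.

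Interleukins are small secreted proteins through which leukocytes and cells of the vessel wall signal to each other. Many of them bind a receptor chain that is their own and then recruit a chain that several interleukins share, such as Il1rap in the IL-1 family, gp130 (Il6st) in the IL-6 family, the common gamma chain (Il2rg) for IL-2, IL-4, IL-7, IL-15 and IL-21, or Il17ra for IL-17. Soluble antagonists, decoy receptors and binding proteins limit the signal. In the arterial wall, macrophages, lymphocytes, smooth muscle and endothelium are known sources or targets of IL-1 and IL-6.

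Every array carried aortic RNA in red (Cy5) and a commercial reference, a universal mouse RNA, in green (Cy3), and dyes were not swapped. Each level below is therefore a log2 ratio of aorta over reference for 1 probe, and it ranks mice for that gene, not genes against each other. Red signal well above background was found on 37.6% of spots (sham 5) to 65.8% (PPE 1), and on 26 (sham 5) to 69 (PPE 1) of the 83 members. The arrays lay on 5 slides, of which only slide 1 (sham 1, PPE 1, PPE 2) and slide 2 (sham 2, sham 3, PPE 3, PPE 4) held both groups. All 6 smooth muscle markers were above background on all arrays, and 4 were lower in PPE (list mean 3.61 to 4.43 in sham, 1.98 to 3.27 in PPE). All 6 macrophage markers were higher in PPE (mean log2 ratio over the list 0.63 to 1.17 in sham, 2.72 to 3.88 in PPE), as were 4 of the 5 neutrophil markers tested (0.57 to 0.80 against 3.15 to 4.12, with Csf3r not called) and 3 of 6 T cell markers (-1.12 to 0.12 against 0.82 to 1.84). None of the B cell, mast cell, endothelial or adipocyte markers tested was called. In whole tissue, more cells of a type and more RNA per cell cannot be told apart, and the part of these cells in the values below was not tested.

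Most of the interleukin system that could be measured was higher in the aneurysm. Testing required a red signal well above background on 5 or more of the 10 arrays, and 54 of the 83 members met this. At a limma adjusted p under 0.01, 29 of the 54 were higher in PPE (53.7%, against 13.9% of all 22520 gene names tested) and 2 were lower (3.70%, against 9.96%), while 23 were not called. The median log2 fold change of the 54 was 1.06, against 0.02 over all names, and 27 of the 29 increases were larger than 2-fold. No overlap between the groups was seen in 30 of the 54 members (55.6%, against 25.5% of all names). A member seen only in PPE could enter only through the group where it was high. Among the 25 members above background on all 10 arrays, where this does not apply, 13 were higher (52.0%, against 15.5% of such names), 1 was lower (against 13.0% of such names) and 11 were not called.

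Centring each array on its median in place of loess raised the median over all names from 0.02 to 0.41. It changed the calls over all names from 3122 higher and 2244 lower to 408 higher and 8 lower, so that higher names made up 98.1% in place of 58.2% of the calls. The median of the 54 members then stood 0.76 above that of all names, compared with 1.04 under loess, and 8 members were called, all of them higher: Il1b, Il6, Il1r2, Il18r1, Il33, Il3ra, Il12rb1 and Il17ra.

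**Figure D1:**
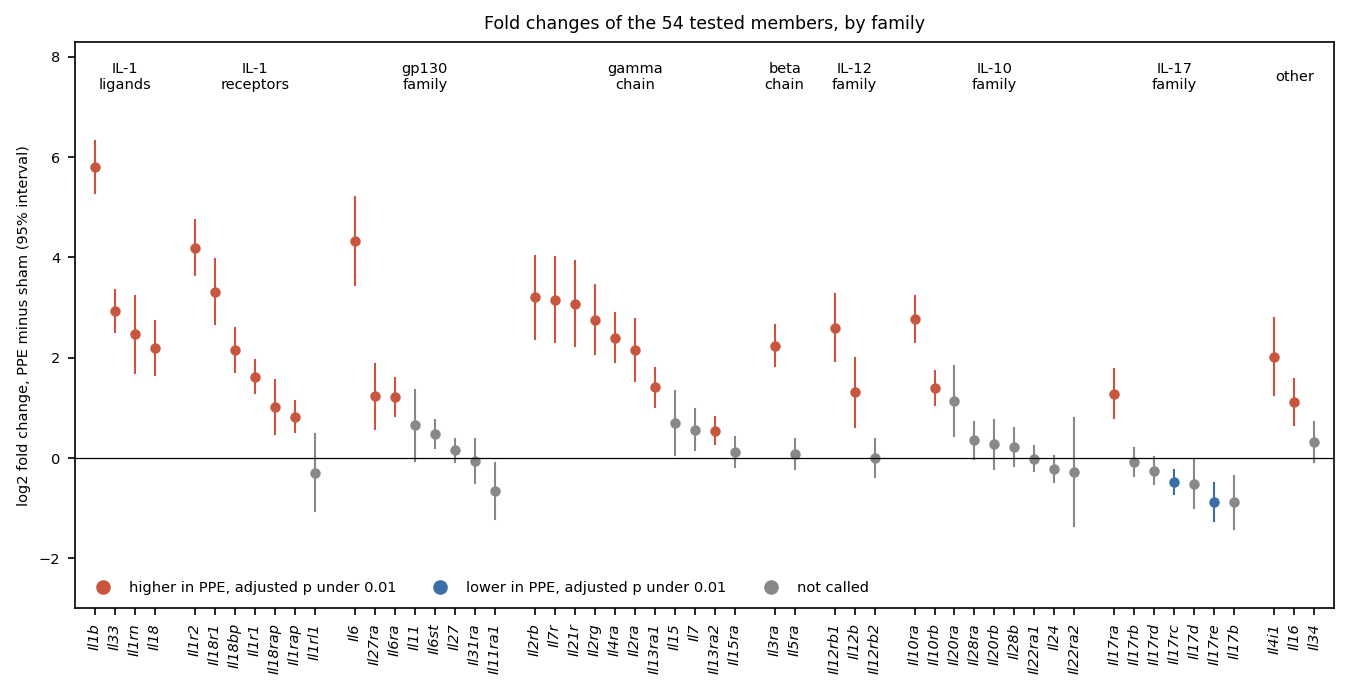
Log2 fold changes (PPE minus sham, y axis) of the 54 tested members, grouped by family and sorted within it along the x axis. Points are limma estimates and lines their 95% intervals, in red for members called higher, blue for called lower and grey for not called. Il1b stands highest at 5.80, and the 2 called decreases, Il17re (-0.87) and Il17rc (-0.48), both lie in the IL-17 family.

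Receptor chains and ligands differed in how often they could be measured. Of 41 receptor chains, 36 were tested, and 20 of these were higher and 2 lower. Of the other 42 members, which are ligands, antagonists, a binding protein and an enzyme, only 18 were tested, with 9 higher and 0 lower. Of all 35527 gene names, 22520 were tested, and 13.9% of these were higher and 9.96% lower. The counts of the 2 classes were not tested against these shares or against each other. Among the 29 untested members, 17 were above background on more PPE than sham arrays, 5 on fewer and 7 on no array. The same count over all untested names was not made. Over all spots, red signal was above background on 37.6% to 62.1% in sham and 45.8% to 65.8% in PPE. The count is therefore not a result about the members. The 7 never above background were Il1f5, Il1f8, Il1rapl2, Il9, Il12a, Il25 and Il31. For these a transcript was not detectable at this signal, which does not show that it is absent.

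**Figure D2:**
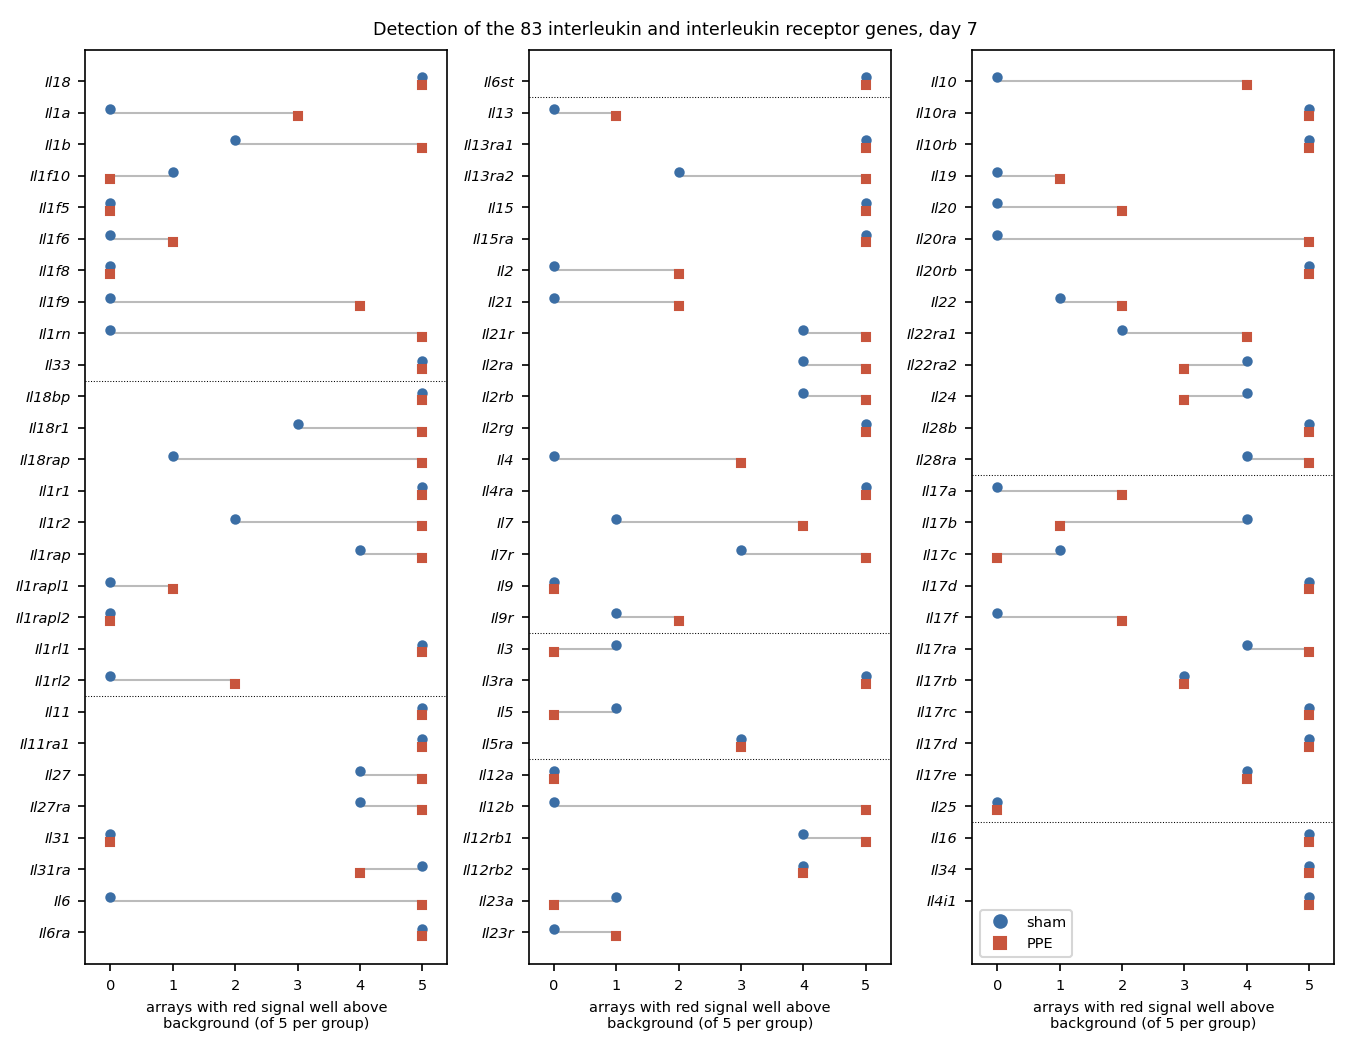
Number of arrays per group (x axis, 0 to 5) on which the red signal of each of the 83 members (y axis) was well above background, with circles for sham and squares for PPE. Dotted lines separate families. Il1rn, Il6, Il12b and Il20ra stand at 0 of 5 sham and 5 of 5 PPE arrays.

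Il1b, Il6 and Il1r2 had the highest fitted log2 fold changes and Il17re the lower of the 2 called decreases. This order depends on how background is handled, since Feature Extraction's own LogRatio put Il6 (7.67) above Il1b (7.10) and put Il1rn, Il12b, Il18r1, Il20ra and Il12rb1 (4.13 to 4.71) above Il1r2 (3.94). The 250 bases before the RefSeq transcription start are shown for these 4 genes because they lie at both ends of the fitted range, with the start at the right-hand end. The letters are those of assembly GRCm38.p6, 5′ to 3′ on the strand of the gene. Capitals mark matches, on either strand, to the AP-1 motif TGANTCA, the C/EBP motif TTGCNNAA, the GAS motif TTCNNNGAA bound by STAT factors, or the NF-κB consensus.
Il1b (chr2:129371140-129371389, minus strand): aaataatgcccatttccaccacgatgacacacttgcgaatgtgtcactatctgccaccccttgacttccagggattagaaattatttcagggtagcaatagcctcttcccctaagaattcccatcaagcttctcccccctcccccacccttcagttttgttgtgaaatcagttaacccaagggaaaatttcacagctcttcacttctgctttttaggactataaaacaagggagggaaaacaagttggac
Il6 (chr5:30012864-30013113, plus strand): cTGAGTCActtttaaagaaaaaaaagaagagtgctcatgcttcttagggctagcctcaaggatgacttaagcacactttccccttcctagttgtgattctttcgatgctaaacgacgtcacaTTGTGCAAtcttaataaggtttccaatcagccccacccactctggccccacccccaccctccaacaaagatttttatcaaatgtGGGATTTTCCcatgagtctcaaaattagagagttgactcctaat
Il1r2 (chr1:40085843-40086092, plus strand): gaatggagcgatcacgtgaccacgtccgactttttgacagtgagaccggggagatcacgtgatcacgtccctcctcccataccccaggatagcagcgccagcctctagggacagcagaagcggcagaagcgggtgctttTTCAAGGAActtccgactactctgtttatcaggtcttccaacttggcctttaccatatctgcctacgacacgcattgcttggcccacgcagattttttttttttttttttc
Il17re (chr6:113458521-113458770, plus strand): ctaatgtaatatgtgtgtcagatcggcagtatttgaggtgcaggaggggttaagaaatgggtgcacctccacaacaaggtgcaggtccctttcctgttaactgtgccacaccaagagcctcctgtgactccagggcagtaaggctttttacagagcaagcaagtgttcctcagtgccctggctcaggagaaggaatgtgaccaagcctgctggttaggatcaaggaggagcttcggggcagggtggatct
The Il6 window held an AP-1 match, a C/EBP match (on the opposite strand) and an NF-κB match, in this order towards the start, and that of Il1r2 held a GAS match. Neither Il1b nor Il17re had any of these letters in the window. Over all 27025 genes with a promoter window of this length, 7.82% held AP-1, 10.8% C/EBP, 8.13% GAS and 8.23% NF-κB in at least 1 window. Members are counted in the same way. Of the 29 higher members, 23 had a window, and AP-1 matches were found in 4 of these, C/EBP in 7, GAS in 3 (Il1r2, Il18r1, Il7r) and NF-κB in 4 (Il6, Il1r1, Il2ra, Il16). Of the 23 tested members that were not called, 16 had a window. AP-1 matches were found in 6 of these, C/EBP in 2, GAS in 2 and NF-κB in 1. AP-1 matches thus made up a larger share there (37.5%) than among the higher members (17.4%). The shares of C/EBP (12.5% against 30.4%), NF-κB (6.25% against 17.4%) and GAS (12.5% against 13%) were smaller there. These differences were not tested. A match is a run of letters and no evidence of binding.

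The counts of each family below stand beside 13.9% higher and 9.96% lower over all names, and were not tested against these shares. All 4 tested IL-1 family ligands and antagonists were higher in PPE (median log2 fold change 2.70). Il1b, which encodes the main secreted IL-1, read -0.44, -0.18, -0.08, -0.43 and -0.25 on sham 1 to 5 and 6.52, 5.18, 5.17, 5.38 and 5.39 on PPE 1 to 5. Thus the groups lay far apart, with PPE 1 above the other 4. The difference was 5.80 (SE 0.23, 55.8-fold, adjusted p 1.54e-07), and since only 2 sham arrays were above background the sham level was close to what the array can measure. Its probe lies at chr2:129190347-129190406 on mm9, the build of the files.

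Il1rn encodes the IL-1 receptor antagonist, which occupies the receptor without signalling. Only PPE arrays showed it above background, all 5 of them, a pattern met by 4 of the 54 tested members and by 0.448% of all names tested. Its ratios were -0.38, -0.53, -0.15, -0.51 and -0.15 in sham and 3.25, 2.05, 1.84, 2.60 and 0.87 in PPE, so even PPE 5, the lowest, was above every sham array. The log2 ratio rose by 2.47 (SE 0.35, 5.53-fold, adjusted p 2.16e-04). Against the lowest measurable signal the red channel gave 4.16-fold on its own and 6.00-fold after loess and Aquantile scaling, so only the lower value, at least 4.16-fold, can serve as a bound.

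Il33 encodes an alarmin that is kept in the nucleus of barrier and stromal cells. Its ratios were 0.19, 0.09, 0.24, 0.34 and 0.63 in sham and 2.85, 3.60, 3.62, 3.40 and 2.74 in PPE, with every array above background. This is a difference of 2.94 (SE 0.19, 7.67-fold, adjusted p 1.23e-06), with no overlap and little spread in either group. Il18, whose product is cut to its active form by caspase-1, rose by 2.19 (SE 0.25, adjusted p 4.16e-05), from -0.81 to -0.12 in sham to 1.06 to 2.29 in PPE.

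The other 6 ligands and antagonists of the family were too dim to test. Il1f9, an agonist of the Il1rl2 receptor, was above background on 4 PPE arrays and 0 sham arrays. It read 3.20, 1.04, 0.81, 2.76 and 0.36 on PPE 1 to 5, above all sham arrays (-0.04 to 0.07). Il1a was above background on 3 PPE arrays and 0 sham arrays, with 2.72 on PPE 1 and 1.45 on PPE 4 but 0.09 to 0.36 on the other PPE arrays. Il1f6 and Il1f10 were above background on 1 array each, in PPE and in sham respectively, and Il1f5 and Il1f8 on none.

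**Figure D3:**
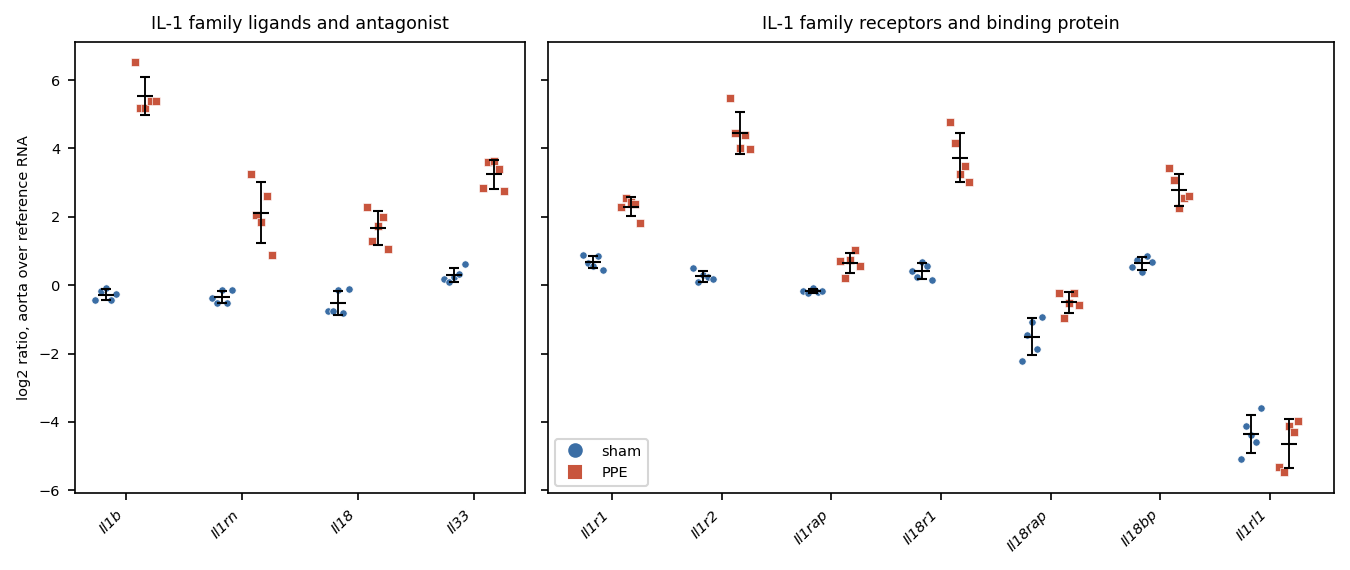
Log2 ratios of aorta over reference RNA (y axis) on each of the 5 sham (circles) and 5 PPE (squares) arrays for the tested IL-1 family ligands and antagonist (left) and the receptors and binding protein (right). Black bars are the mean ± SD. All but Il18rap and Il1rl1 are separated without overlap, and Il1rl1 lies near -4.35 in sham and -4.64 in PPE.

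Of the 7 tested IL-1 family receptors and binding protein, 6 were higher in PPE and 0 lower (median 1.62). Il1r2 encodes a decoy receptor that binds IL-1 without signalling. It read 0.51, 0.08, 0.31, 0.23 and 0.18 in sham, 5.46 on PPE 1 and 3.97 to 4.45 on the other PPE arrays, with 2 sham arrays above background. Its increase of 4.19 (SE 0.25, 18.3-fold, adjusted p 6.47e-07) was larger than that of Il1r1, the signalling receptor, which rose by 1.62 (SE 0.15, 3.08-fold, adjusted p 9.82e-06). The 2 increases were not tested against each other, but their 95% intervals, 3.65 to 4.74 and 1.30 to 1.95, do not meet. Il1rap, the chain that completes the IL-1 and IL-33 receptors, rose by 0.82 (SE 0.14, adjusted p 7.75e-04).

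The IL-18 receptor and its inhibitor moved the same way. Il18r1, the chain that binds IL-18, read 0.16 to 0.69 in sham and 4.77, 4.15, 3.24, 3.49 and 3.02 on PPE 1 to 5. Its increase was 3.32 (SE 0.29, 9.99-fold, adjusted p 7.32e-06), with 3 sham arrays above background. With the LogRatio it was 4.30, above the 3.94 of Il1r2, so the order of these 2 receptors is not settled. Il18rap, the second chain, rose by 1.02 (SE 0.25, adjusted p 0.00717), from -1.52 ± 0.54 to -0.50 ± 0.30 (mean ± SD, n = 5 each), with 1 sham array above background and PPE 2 at -0.95 just below sham 5 at -0.93. The call was lost without sham 1, sham 2, sham 4 or any PPE array other than PPE 2 (adjusted p 0.0111 to 0.0219). Il18bp, a secreted protein that traps IL-18, rose by 2.15 (SE 0.20, adjusted p 1.19e-05) with every array above background.

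Il1rl1, the receptor of IL-33, was not called. It read -5.09, -4.11, -4.38, -4.59 and -3.59 in sham and -5.33, -5.48, -4.11, -4.30 and -3.96 in PPE, far below the reference RNA on all arrays although above background on all. The difference was -0.29 (95% interval -1.05 to 0.48, adjusted p 0.582), so an increase of the size seen for Il33 lies outside the interval. A second tested probe gave 0.02 (SE 0.19). Il1rl2, Il1rapl1 and Il1rapl2 were above background on 2, 1 and 0 PPE arrays and on no sham array.

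These receptors share a locus, which shows that neighbours did not change alike. On mm9 chromosome 1 the probes of Il1r2, Il1r1, Il1rl2, Il1rl1, Il18r1 and Il18rap follow each other within 426 kb, from 40180014 to 40605788. Along it, the log2 fold changes were 4.19, 1.62, not tested, -0.29, 3.32 and 1.02. Il1rl1, which was not called, thus lies between called genes.

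The gp130 family was led by Il6, with fewer calls among its other members, since 3 of 8 tested were higher (median 0.57). Il6 encodes a cytokine that drives the acute-phase response. It read -2.82, -1.72, -1.49, -2.68 and -1.13 in sham, never above background, and 2.19, 1.94, 2.21, 3.63 and 1.83 in PPE, always above it. Its log2 fold change was 4.33 (SE 0.40, adjusted p 1.03e-05). Against the lowest measurable signal the red channel gave 14.9-fold on its own and 16.0-fold after loess and Aquantile scaling. Only the lower value, at least 14.9-fold, can serve as a bound. The sham values are background and carry no order. The probe lies at chr5:30346367-30346426 on mm9.

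Il6ra, the chain that binds IL-6, rose by 1.22 (SE 0.17, adjusted p 2.09e-04), from -0.17 to 0.46 in sham to 1.20 to 1.93 in PPE. Il27ra, the IL-27 receptor, rose by 1.23 (SE 0.30, adjusted p 0.00696), from -0.16 ± 0.31 to 1.06 ± 0.69 (mean ± SD, n = 5 each). Its groups overlapped, with PPE 5 at 0.11 below sham 3 at 0.37, and the call was lost without any 1 array other than sham 3 or PPE 5 (adjusted p 0.0119 to 0.0208). Il6st, the shared gp130 chain, was higher on every PPE array (1.93 to 2.54) than on any sham array (1.59 to 1.79), yet its difference of 0.48 missed the threshold (adjusted p 0.0116). The other 4 tested members, Il11, Il11ra1, Il27 and Il31ra, were not called, with differences from -0.66 (Il11ra1) to 0.65 (Il11).

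Of the receptors that signal through the common gamma chain, those of IL-2, IL-4, IL-7 and IL-21 were higher in PPE, and among all 17 members of this group 8 of the 11 tested were called higher and 0 lower (median 2.15). All 3 chains of the IL-2 receptor rose. Il2rb, shared with IL-15, read 0.85, 0.64, 1.59, 1.06 and -0.11 in sham and 4.94, 4.61, 3.76, 3.67 and 3.09 in PPE, an increase of 3.21 (SE 0.38, 9.23-fold, adjusted p 5.63e-05). Il2rg, the common chain itself, rose by 2.76 (SE 0.31, adjusted p 4.50e-05), and Il2ra, which raises affinity for IL-2, by 2.15 (SE 0.29, adjusted p 1.37e-04). The call of Il2ra was lost with the LogRatio (2.27, adjusted p 0.0508) and with the authors' series matrix values (2.23, adjusted p 0.0472).

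Il7r, which carries the survival signal of IL-7 in T cells, read 1.09, 0.24, 1.72, 0.73 and 0.21 in sham and 4.79, 4.58, 3.47, 4.05 and 2.92 in PPE. It rose by 3.16 (SE 0.38, 8.96-fold, adjusted p 7.31e-05), with 3 sham arrays above background and the reference channel below background on all arrays. Il21r rose by 3.08 (SE 0.39, adjusted p 9.43e-05). Il4ra rose by 2.40 (SE 0.22, adjusted p 1.05e-05) and Il13ra1, its partner in the receptor that binds both IL-4 and IL-13, by 1.41 (SE 0.18, adjusted p 9.55e-05). Il13ra2, a decoy for IL-13, rose by 0.54 (SE 0.12, adjusted p 0.00527), the smallest increase called. That call was lost with slide as a fixed block (adjusted p 0.0238) and without sham 1, 2, 4 or 5 or PPE 1, 2 or 4 (adjusted p 0.0125 to 0.0146).

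Sham 3 was the highest sham array for Il2rb, Il2rg, Il7r, Il21r and Il4ra, and for 15 of the 29 members called higher. The T cell marker mean was 0.12 on sham 3, and -1.12 to -0.64 on the other sham arrays. Its B cell marker mean was 0.83, and -0.63 to -0.35 on the others. Its macrophage marker mean, 0.63, was the lowest in sham. With sham 3 and the array with the highest B cell marker mean in PPE (PPE 2, 1.71) left out, a choice made after seeing the data, 27 members were called higher and 2 lower, without Il12b, Il13ra2 and Il17re (-0.81, adjusted p 0.0153) and with Il17b gained. The part of lymphocytes in these levels was not tested.

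Few of the cytokines that bind these receptors could be measured. Il15 was above background on all arrays and was not called (0.70, 95% interval 0.07 to 1.33, adjusted p 0.0810), and neither was Il7 (0.56, 0.16 to 0.97, adjusted p 0.0333), which was above background on 1 sham and 4 PPE arrays. Il15ra did not pass the test either (0.12, interval -0.17 to 0.42). Il4 was above background on 3 PPE and 0 sham arrays, Il2 and Il21 on 2 and 0, Il13 on 1 and 0, and Il9 on none. Il9r was above background on 2 PPE and 1 sham arrays.

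**Figure D4:**
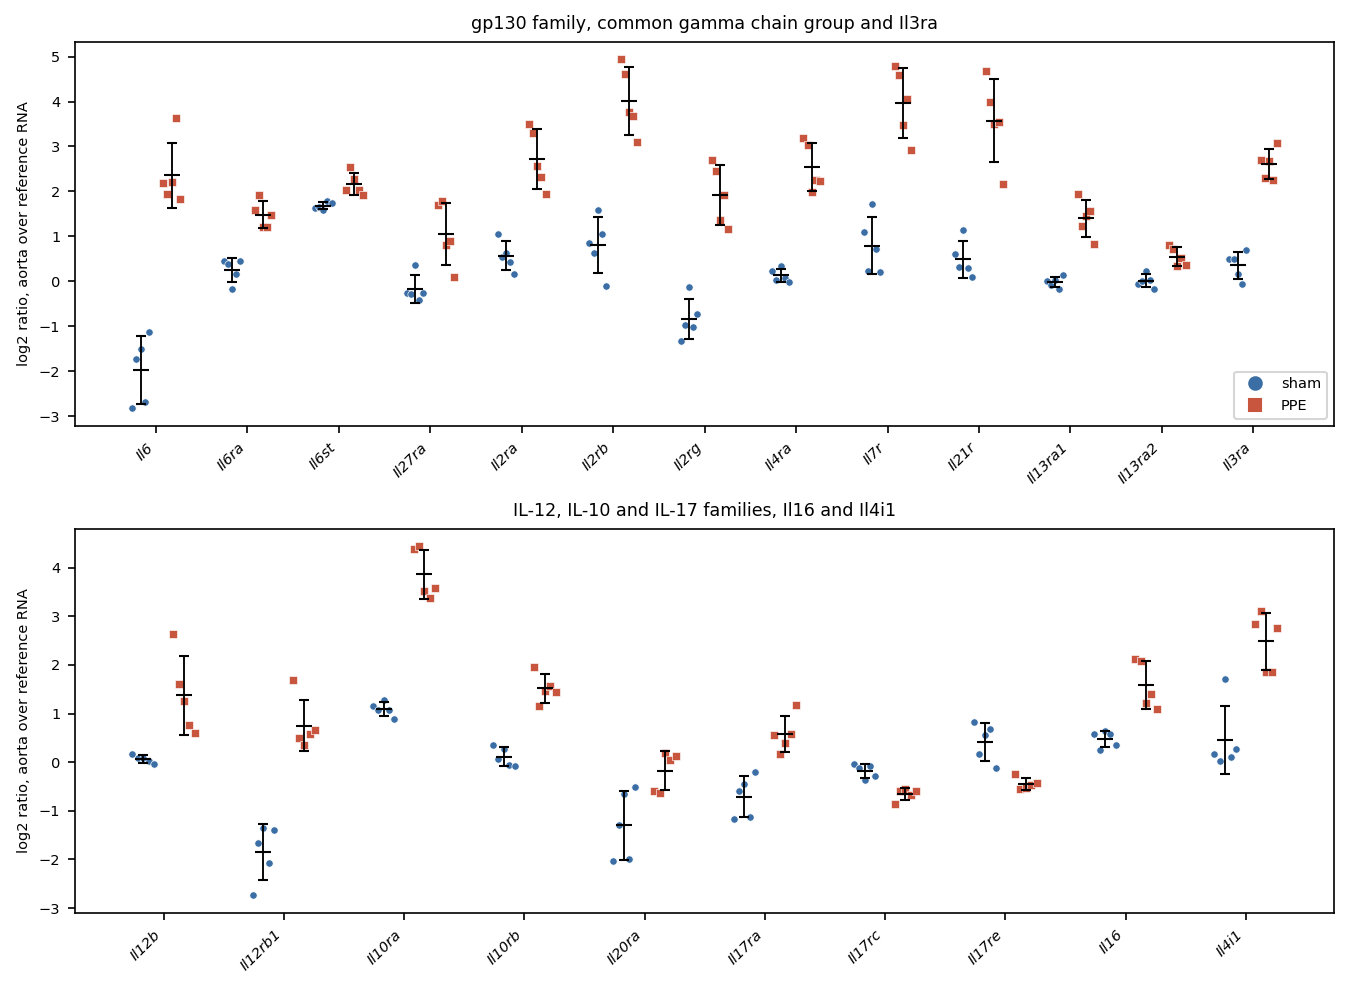
Log2 ratios of aorta over reference RNA (y axis) per array, sham as circles and PPE as squares, with the mean ± SD in black. The upper panel holds members of the gp130 family, the common gamma chain group and Il3ra, and the lower one members of the IL-12, IL-10 and IL-17 families, Il16 and Il4i1. Il17re and Il17rc are the only members shown whose PPE arrays all lie below their sham arrays.

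In the common beta chain group, Il3ra, which binds IL-3, rose by 2.24 (SE 0.19, 4.73-fold, adjusted p 5.15e-06). Its sham arrays ranged from -0.06 to 0.70 and its PPE arrays from 2.25 to 3.07, all above background. Il5ra, the eosinophil receptor chain for IL-5, was not called (0.08, 95% interval -0.22 to 0.37). Il3 and Il5 were above background on 1 sham array each and on no PPE array.

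Among the IL-12 family, the shared chains Il12b and Il12rb1 were higher and the others were untested or not called. Il12b encodes p40, a subunit of both IL-12 and IL-23. It read 0.17, 0.08, 0.09, 0.03 and -0.04 in sham and 2.63, 1.60, 1.26, 0.77 and 0.60 in PPE, above background on all PPE arrays and no sham array. Its log2 fold change was 1.31 (SE 0.32, adjusted p 0.00709), with the reference channel below background on all arrays. Against the lowest measurable signal the red channel gave 1.59-fold on its own and 1.98-fold after loess and Aquantile scaling. Only the lower value, at least 1.59-fold, can serve as a bound. The call of Il12b was lost with slide as a fixed block (adjusted p 0.0121). It was also lost without any 1 of the 5 sham arrays, PPE 2 or PPE 3 (adjusted p 0.0146 to 0.0184). The partners of p40, Il12a (p35) and Il23a (p19), were above background on 0 arrays and on 1 sham array. Il12a read 0.02 to 0.27 in sham and 0.06 to 0.19 in PPE, all of it background.

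Il12rb1, a receptor chain for both cytokines, read -2.74, -1.66, -1.36, -2.07 and -1.39 in sham and 1.68, 0.49, 0.35, 0.58 and 0.66 in PPE. It rose by 2.60 (SE 0.30, 6.05-fold, adjusted p 5.77e-05), with PPE 1 above the other 4 PPE arrays. A second, dimmer probe of Il12rb1 rose less and was not called (0.43, SE 0.14, adjusted p over probes 0.0335), and the mean of both gave 1.51. Il4ra showed a similar gap in size, with 0.47 (SE 0.11) from its dimmer probe and 1.43 for the mean. That dimmer Il4ra probe did pass the threshold (adjusted p over probes 0.00638). Il12rb2, which is specific to IL-12, did not pass the test (-0.00, 95% interval -0.37 to 0.37), and Il23r was above background on 1 PPE array.

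In the IL-10 family the IL-10 receptor was higher while most other members were not called. Of 9 tested, 2 were higher and 0 lower (median 0.27), against 13.9% and 9.96% of all names. Il10ra, which binds the anti-inflammatory cytokine IL-10, read 0.88 to 1.28 in sham and 4.38, 4.44, 3.53, 3.38 and 3.59 in PPE. It rose by 2.77 (SE 0.21, 6.84-fold, adjusted p 3.04e-06), and Il10rb, a chain shared with the receptors of IL-22 and the type III interferons, by 1.40 (SE 0.15, adjusted p 3.80e-05). Il10 itself was above background on 4 PPE arrays and 0 sham arrays and was not tested. It read -1.63, -1.04, -0.57, -1.45 and -0.63 in sham and -0.41, -1.19, -0.77, -0.51 and -0.51 in PPE, so the groups overlapped.

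Il20ra, a receptor chain for IL-19, IL-20 and IL-24, was above background on all PPE and no sham arrays. It was not called (log2 fold change 1.13, SE 0.32, adjusted p 0.0166). The groups overlapped, with PPE 2 at -0.63 below sham 5 at -0.52, so no bound is given. Under 9 of 23 alternatives Il20ra passed. Its log2 fold change ranged from 0.94 without sham 1 to 4.18 with the LogRatio (adjusted p 0.0401 and 2.70e-04), and was 1.81 with an offset of 10 (adjusted p 0.00568). The other 6 tested members were Il20rb, Il22ra1, Il22ra2, Il24, Il28b and Il28ra, the last 2 now named Ifnl3 and Ifnlr1. Their differences ran from -0.27 (Il22ra2) to 0.35 (Il28ra), and none was called. Il22 was above background on 1 sham and 2 PPE arrays, Il20 on 0 and 2, and Il19 on 0 and 1.

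Of 7 tested members of the IL-17 family, 1 was higher and 2 were lower, with a median log2 fold change of -0.48. Over all names 13.9% were higher and 9.96% lower, so the 1 increase is near the share of all names. Neither decrease was called under median centring. Il17re, which pairs with Il17ra to bind IL-17C, read 0.83, 0.17, 0.55, 0.68 and -0.13 in sham and -0.25, -0.56, -0.54, -0.46 and -0.43 in PPE. It fell by 0.87 (SE 0.17, adjusted p 0.00226), with 4 of 5 arrays above background in each group. Under median centring its difference was -0.49 (adjusted p 0.461). Il17rc, which pairs with Il17ra to bind IL-17A and IL-17F, read -0.03, -0.11, -0.36, -0.08 and -0.29 in sham and -0.87, -0.59, -0.55, -0.68 and -0.59 in PPE. It fell by 0.48 (SE 0.11, adjusted p 0.00477), but read 0.24 higher under median centring, where all names were 0.41 higher. A second Il17rc probe gave the same difference of -0.48 and was not called (SE 0.22, adjusted p over probes 0.124). Without sham 1, 2 or 4 or PPE 1 or 4, the call of Il17rc was lost (adjusted p 0.0129 to 0.0152), as it was with slide as a fixed block (-0.50, adjusted p 0.0226).

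In contrast, Il17ra, the chain shared by both receptors, rose by 1.28 (SE 0.23, 2.43-fold, adjusted p 0.00102). It read -1.16, -0.59, -0.45, -1.13 and -0.20 in sham and 0.55, 0.17, 0.40, 0.58 and 1.18 in PPE. On mm9 chromosome 6, the probes of Il17re (113420078 to 113420137) and Il17rc (113433073 to 113433132) lie 13 kb apart, and that of Il17ra (120432880 to 120432939) is distant from both.

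Il17b was above background on 4 sham arrays and 1 PPE array and read 0.44 to 1.73 in sham and -0.06 to 0.72 in PPE, but was not called (-0.88, 95% interval -1.41 to -0.35, adjusted p 0.0142). Il17d, Il17rb and Il17rd were not called, with differences from -0.51 to -0.08. The cytokines best known in inflammation, Il17a and Il17f, were above background on 2 PPE and 0 sham arrays each, Il17c on 1 sham array and Il25 on none.

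Of the 3 members outside these families, 2 were higher. Il4i1, a secreted enzyme of antigen-presenting cells that breaks down amino acids, read 0.16, 0.03, 1.71, 0.11 and 0.28 in sham and 2.84, 3.11, 1.86, 1.85 and 2.75 in PPE. It rose by 2.02 (SE 0.35, adjusted p 9.48e-04), although sham 3 came close to PPE 3 and PPE 4, and with slide as a fixed block the call was lost (adjusted p 0.0268). The difference was 2.82 within slide 1 and 0.99 within slide 2, which holds sham 3. Il16, a chemoattractant for CD4+ cells, rose by 1.11 (SE 0.21, adjusted p 0.00158). Il34, a second ligand of the macrophage receptor Csf1r, was not called (0.32, 95% interval -0.08 to 0.72).

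Some arrays stood at the end of their group for many members. PPE 1 was the highest PPE array for 18 of the 29 members called higher and PPE 5 the lowest for 16. PPE 1 and PPE 5 also had the highest and the lowest share of red spots above background in their group (65.8% and 45.8%). The arrays of slide 1 (sham 1, PPE 1, PPE 2) were scanned on another day than all others, and PPE 5 lay alone on slide 5. PPE 2 was the highest PPE array for 5 more of the 29 members. The parts of signal strength, slide and scan day in this order of arrays were not tested. With sham 5 and PPE 5, the dimmest array of each group, left out, a choice made after seeing the data, 34 members were called, 31 of them the same as with all arrays. All 31 called members also had the same sign within slide 1 and within slide 2. For all but 2 of them the groups did not overlap, so this sign was fixed in advance and adds no support.

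Genes that process and relay interleukin signals were higher too in the majority. Over all names, 13.9% were higher and 9.96% lower. Of 16 genes of IL-1 processing and signalling, 11 were higher and 0 lower (median 0.91). They included the inflammasome adaptor Pycard (2.55, SE 0.19), the pore protein gene Gsdmd (2.21, SE 0.15) and Casp1 (1.79, SE 0.20), while Traf6 (0.51, adjusted p 0.0166), Map3k7 (0.31) and Irak2 (-0.27) were not called. Of 16 JAK, STAT and SOCS genes, 9 were higher and 0 lower (median 0.92). Among them were Stat4, the relay of IL-12 (2.55, SE 0.33), Stat2 (2.25, SE 0.17) and the feedback inhibitor Socs1 (2.13, SE 0.25), while Stat6, the relay of IL-4 (0.63, adjusted p 0.0251), Tyk2 (0.48) and Cish (0.44) were not called.

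Of 13 tested partners of interleukins that carry other names, 8 were higher and 1 lower (median 1.12). The shares over all names were 13.9% and 9.96%. The common beta chain genes Csf2rb2 and Csf2rb rose by 3.32 (SE 0.34) and 3.16 (SE 0.18), Lcn2, a target gene of IL-17 and IL-1 signalling, by 2.89 (SE 0.20), and Ebi3, the partner of Il27 and Il12a, by 2.70 (SE 0.27). Ctf1, a gp130 ligand of heart and muscle, fell by 0.82 (SE 0.13, adjusted p 5.11e-04). Clcf1 was not called (0.17). Lif was above background on 4 PPE and 0 sham arrays and was not tested. On these pathway genes too, the leukocyte marker differences given above moved with the groups, and their part was not tested.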

How the data were processed

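Infrarenal aortic RNA (500 ng) of 5 sham and 5 PPE mice was hybridized with a common reference to 2-colour Agilent arrays (Cy5 aorta, Cy3 reference), and groups and numbers were taken from the labels. The authors had left out arrays with poor hybridization, and outliers found by clustering and principal components, which can narrow the spread within groups. Spots were extracted by the authors with Agilent Feature Extraction 10.7.3.1. Spot signals and their backgrounds were deposited as linear intensity, and LogRatio was deposited as log10 of red against green. The authors' series matrix holds log2 ratios of unstated scale, which equalled log2 of processed red over green signal on 100% of spots (tolerance 1e-04).

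Values were computed in R 4.3.3 with limma 3.58.1 from mean signal and median background by normexp (offset 50) and loess within arrays, without normalization between arrays. The offset draws dim probes towards 0. Control spots and 176 to 331 outlier spots per array were left out, spots of a probe were averaged, and probes needed red signal well above background on at least 5 of 10 arrays (on a share of at least 0.5 of their spots). A name was represented by its brightest tested probe. Groups were compared by lmFit and eBayes, two-sided and unpaired, with Benjamini-Hochberg adjustment over 22520 names and a threshold of 0.01. P-values measure the spread between mice. Adjusted p-values are limma's.

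Members above background on all arrays of a group and none of the other were given a bound. It was taken, per array, against the higher of the probe's own signal and the lowest signal well above background. The red channel was used after loess and Aquantile and on its own, and the lower value served as the bound. No bound was given for Il20ra, whose groups overlapped. Such bounds are open to dye bias. Named with values were all called members, those above background in 1 group only, and Il6, Il10, Il12a and Il12b. The members and lists were chosen with earlier results of these data known. All 83 names matched RefSeq (GRCm38.p6), used for names and promoter sequences only; no annotation of exons on mm9 was used. The test was checked on simulated data. Alternatives were offset, LogRatio, series matrix, median centring, red channel alone, filters, probe averaging, slide, scan day and number blocks, each array left out, and a threshold of 0.05.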

Additional observations from a re-analysis of the deposited data

Results flagged for a closer look

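In 5 of 64 groups of 5 arrays (the 32 tested named members, each in sham and in PPE), 1 array stood apart from the other 4, where chance gives about 5% of groups. The measure is the gap of that array to the nearest other, divided by the range of the group, against a critical value of 0.71. PPE 1 was high for Il1b (6.52, next 5.39, ratio 0.843) and for Il12rb1 (1.68, next 0.66, ratio 0.769). PPE 4 was high for Il6 (3.63, next 2.21, ratio 0.788). Sham 3 was high for Il4i1 (1.71, next 0.28, ratio 0.849) and for Il27ra (0.37, next -0.25, ratio 0.790). These arrays had the following marker means, whose part in the values was not tested. PPE 1 had the highest macrophage mean of its group (3.88), PPE 4 the highest neutrophil mean (4.12), and sham 3 the highest T cell (0.12) and B cell (0.83) means. On other lists the order was reversed. PPE 4 had the lowest T cell (0.82) and adipocyte means of its group. Sham 3 had the lowest macrophage (0.63), smooth muscle, mast cell, endothelium and adipocyte means of its group.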

How the results depend on the processing

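Between 23 and 24 alternatives were run for each of the 32 tested named members, leaving aside values within slides. They gave 750 comparisons, of which 665 kept direction and call, 75 kept the direction but lost the call, 9 gained the call (all Il20ra) and 1 turned, that of Il17rc under median centring (0.24, adjusted p 0.821). Members whose call was kept in all were Il1b, Il6, Il1r2, Il12rb1, Il17ra, Il18r1, Il33 and Il3ra. Outside median centring, the calls of Il12b, Il13ra2, Il17rc, Il17re, Il18rap, Il27ra, Il2ra and Il4i1 were lost at least once, and the cause was not tested.

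Of the 29 members called higher, 8 remained so under median centring and 13 when all 10 arrays had to be above background, where only 25 members were tested. Of the 2 called lower, 0 remained under median centring, 1 with all 10 arrays above background and 1 with the mean of all probes, while 4 were called lower in the red channel alone and 4 with scan day as a block. Leaving out 1 array at a time gave 25 to 30 members higher and 1 to 3 lower, and 2514 to 3615 names higher and 1752 to 2348 lower over all genes. Without sham 1, sham 2, sham 4, PPE 1 or PPE 4 the count of members called lower was 1, since Il17rc was lost. Median centring gave 408 higher and 8 lower names. Replicate numbers did not pair the samples (correlations of deviations -0.30 to 0.52). With the number as a replicate block, 28 members were higher and 2 lower (3024 and 2281 over all names). Il13ra2, Il17rc and Il18rap were lost under it, and Il17b and Il20ra were gained.

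Fold changes of dim members depend on background handling. With the LogRatio, that of Il6 was 7.67, of Il1rn 4.71, of Il12b 4.34, of Il20ra 4.18, of Il18rap 3.62, of Il12rb1 4.13, of Il1rap 1.69, of Il13ra2 1.34 and of Il17re -1.47. Signal over background limits all 29 untested members.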
